A study of Mus musculus with 12 samples.

Results

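Notch receptors, their ligands and their target genes were described in MLE12 cells, a mouse line of distal lung epithelium that carries the SV40 large T antigen. The genes were the receptors Notch1, Notch2 and Notch3, the ligands Jag1, Jag2 and Dll1, the receptor-modifying enzyme gene Lfng, and the targets Hes1, Hey1 and Heyl. Every probe set that the platform's annotation pairs with exactly 1 of these 10 symbols was taken, which gave 11 of 41345 probe sets, with 2 for Dll1 and 1 for each other gene. RNA was measured on 12 Affymetrix arrays in 4 groups of 3. The cells were at 60% confluency when lentivirus made from pLKO.1 shRNA plasmids was added, for 12 hours, and subculture then lasted 65 hours. The groups were NANCI shRNA, against a long noncoding RNA, LL34 shRNA, against another RNA, and a scrambled shRNA group for each. All groups thus share the transformed line, the infection and the vector. The sample titles call the replicates biological. The labels give neither the number of hairpins per target nor whether each replicate was a separate infection. The p-values therefore measure only how much these arrays vary, which may be technical.

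Values are log2 signals, so a change of 1 is a 2-fold change in signal. The NANCI set and the LL34 set of 6 arrays each looked normalized apart, with array medians of 6.84 to 6.88 and 6.54 to 6.61, so tests compare arrays within a set. A probe set is called where limma's adjusted p is below 0.05. The NANCI shRNA lowered the signal of its target, listed as Sfta3-ps, to 13.3% and that of Nkx2-1, the lung epithelial transcription factor gene, to 50.1% of the scrambled level. LL34 shRNA lowered both as well, Sfta3-ps to 62.6% and Nkx2-1 to 83.2% (limma adjusted p = 0.00284 and 0.0327), and the LL34 RNA was not analysed here. The labelled epithelial identity was visible in Cdh1 (9.46 to 11.27) and in Sftpc, the surfactant protein C gene (9.07 to 10.84). Epcam was dim, with group means of 6.31 to 6.64, below the array medians except in LL34 shRNA cells. Among markers of other cell types, Tek, an endothelial receptor gene, fell by 1.05 after NANCI shRNA and by 1.26 after LL34 shRNA (limma adjusted p = 0.00141 and 0.000715). It was the only called marker of the 4 endothelial ones, whose summed log2 signal was 27.58 to 27.87 in scrambled and 26.47 to 26.79 in shRNA cells of the NANCI set. For LL34 cells the sums were 25.74 to 26.00 and 24.46 to 24.58. Cd68, a macrophage and lysosomal gene, rose by 0.88 after NANCI shRNA (adjusted p = 0.000145), alone of 3 leukocyte markers, and their sums were 19.23 to 19.76 in scrambled and 19.98 to 20.52 in shRNA cells. In the LL34 set the leukocyte sums were 18.97 to 19.04 and 18.06 to 18.53, with no marker called. No measured airway secretory, ciliated, neuroendocrine, basal or fibroblast and smooth muscle marker was called in either knockdown. The 3 airway secretory markers summed to 15.88 to 16.26 in scrambled and 15.57 to 15.66 in shRNA cells of the NANCI set. The LL34 set gave 15.09 to 15.47 and 14.8 to 14.9. Single airway secretory markers had group means of 4.12 to 6.38, below the array medians. The 7 lung epithelial markers summed to 67.8 to 68.85 in NANCI scrambled and 63.75 to 64.52 in NANCI shRNA cells, and to 66.11 to 67.98 and 66.15 to 66.78 in the LL34 set. Single epithelial markers moved in both directions. After NANCI shRNA, Cdh1 fell by 1.56 and Abca3, a surfactant lipid transporter gene, fell by 1.24 (limma adjusted p = 6.92e-07 for each), while Foxa2, an endoderm transcription factor gene, rose by 0.29 (0.0102). After LL34 shRNA, Foxa2 and Sftpc changed by −0.39 and −0.62 (limma adjusted p = 0.0027 and 0.0392) and Sftpb and Epcam by 0.62 and 0.33 (0.00504 and 0.0324). The part of all these markers in the Notch values was not tested. In bulk RNA, fewer cells of a type and less RNA per cell cannot be told apart.

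Notch receptors are cell-surface proteins that are cut when a ligand of the Jagged or Delta family on a neighbouring cell binds them. The freed intracellular part enters the nucleus, joins the DNA-binding protein RBPJ and a Mastermind coactivator, and switches on repressors of the HES and HEY families. In the lung epithelium, Notch signalling is known for the choice between secretory and ciliated or neuroendocrine airway cells and for a role in alveolar development. Signalling depends on cleavage of the receptor protein, which RNA levels do not show.

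Promoter windows from RefSeq on GRCm38.p6, the 250 bases before the gene start, were held by the table used here for 7 of the 10 genes (Notch1, Notch2, Notch3, Jag1, Jag2, Dll1 and Lfng), in 8 windows. Hes1, Hey1 and Heyl are named only. Of the 8 windows, only that of Lfng held the RBPJ core letters TGGGAA, searched on both strands. The Lfng window lies at chr5:140607091-140607340 on the plus strand. It is shown because Lfng had the largest change among the 11 probe sets. The windows of Jag1 (chr2:137116521-137116770, minus strand) and Jag2 (chr12:112929496-112929745, minus strand) are shown because these ligands, of the same family, moved apart after NANCI shRNA. Each runs 5′ to 3′ on the gene's strand, and capitals mark TGGGAA or the GC box GGGCGG on either strand.
Lfng: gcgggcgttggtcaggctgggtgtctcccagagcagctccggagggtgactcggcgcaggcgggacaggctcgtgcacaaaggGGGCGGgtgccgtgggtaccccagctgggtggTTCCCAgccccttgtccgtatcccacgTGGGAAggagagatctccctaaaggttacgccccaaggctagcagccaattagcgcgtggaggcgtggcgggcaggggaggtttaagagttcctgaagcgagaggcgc
Jag1: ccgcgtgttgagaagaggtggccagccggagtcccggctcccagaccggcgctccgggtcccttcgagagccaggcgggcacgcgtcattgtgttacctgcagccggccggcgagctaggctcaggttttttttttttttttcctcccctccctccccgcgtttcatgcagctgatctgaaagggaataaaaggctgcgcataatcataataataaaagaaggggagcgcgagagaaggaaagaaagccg
Jag2: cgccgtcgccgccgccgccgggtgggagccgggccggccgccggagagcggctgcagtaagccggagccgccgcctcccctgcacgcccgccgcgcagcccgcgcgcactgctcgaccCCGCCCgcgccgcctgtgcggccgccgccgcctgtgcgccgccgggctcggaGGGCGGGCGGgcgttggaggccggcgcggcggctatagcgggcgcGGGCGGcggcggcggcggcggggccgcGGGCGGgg
In the Lfng window TGGGAA stood 108 to 103 bases before the start on the gene's strand and 135 to 130 bases before it on the opposite strand. A match on either strand was held by 21.6% of 32851 mouse promoter windows of this length, and matches on both strands by 1.28%. The copy nearer the start is part of the longer run CGTGGGAA, which 0.636% of windows held on either strand. Every such match contains TGGGAA, so these shares overlap. The Jag2 window held 5 GC boxes, 2 of them overlapping, with 87.2% G and C, and the Jag1 window held none, with 57.2%. At least 1 GC box was held by 32.7% of windows. Jag2 was not alone among the 8 windows. The Notch1 window held 4 GC boxes on the gene's strand and 1 on the opposite strand, that of Notch2 3 and 2, and that of Notch3 3 and 1. Like Jag1, neither Dll1 window held any.

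After NANCI shRNA, 3 of the 11 probe sets passed the test. Jag2 and Notch2 rose and Jag1 fell. Of all 41345 probe sets 19.9% were called, and of 22180 named genes 26.8%, so the share of 27.3% among the 11 lay near the background. By direction, 10.3% of all probe sets were called higher and 9.6% lower. After LL34 shRNA, 5 of 11 passed: Lfng, Hes1, Jag1 and Notch2 fell and Hey1 rose. The background there was 16.4% of probe sets (9.7% higher and 6.66% lower) and 20% of named genes. The shRNA arrays did not overlap the scrambled ones for 4 of 11 probe sets in the NANCI set, against 33% of all, and for 5 of 11 in the LL34 set, against 31%. The median change of the 11 probe sets was 0.07 after NANCI shRNA and −0.09 after LL34 shRNA, against 0.01 and 0.0038 for all probe sets. Over all probe sets the calls after LL34 shRNA were split into 4011 higher and 2755 lower, or 3307 and 3463 after quantile normalization over all arrays. The higher calls numbered 2610 without LL34_shRNA replicate 3 and 2640 without LL34_shRNA replicate 1.

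**Figure D1:**
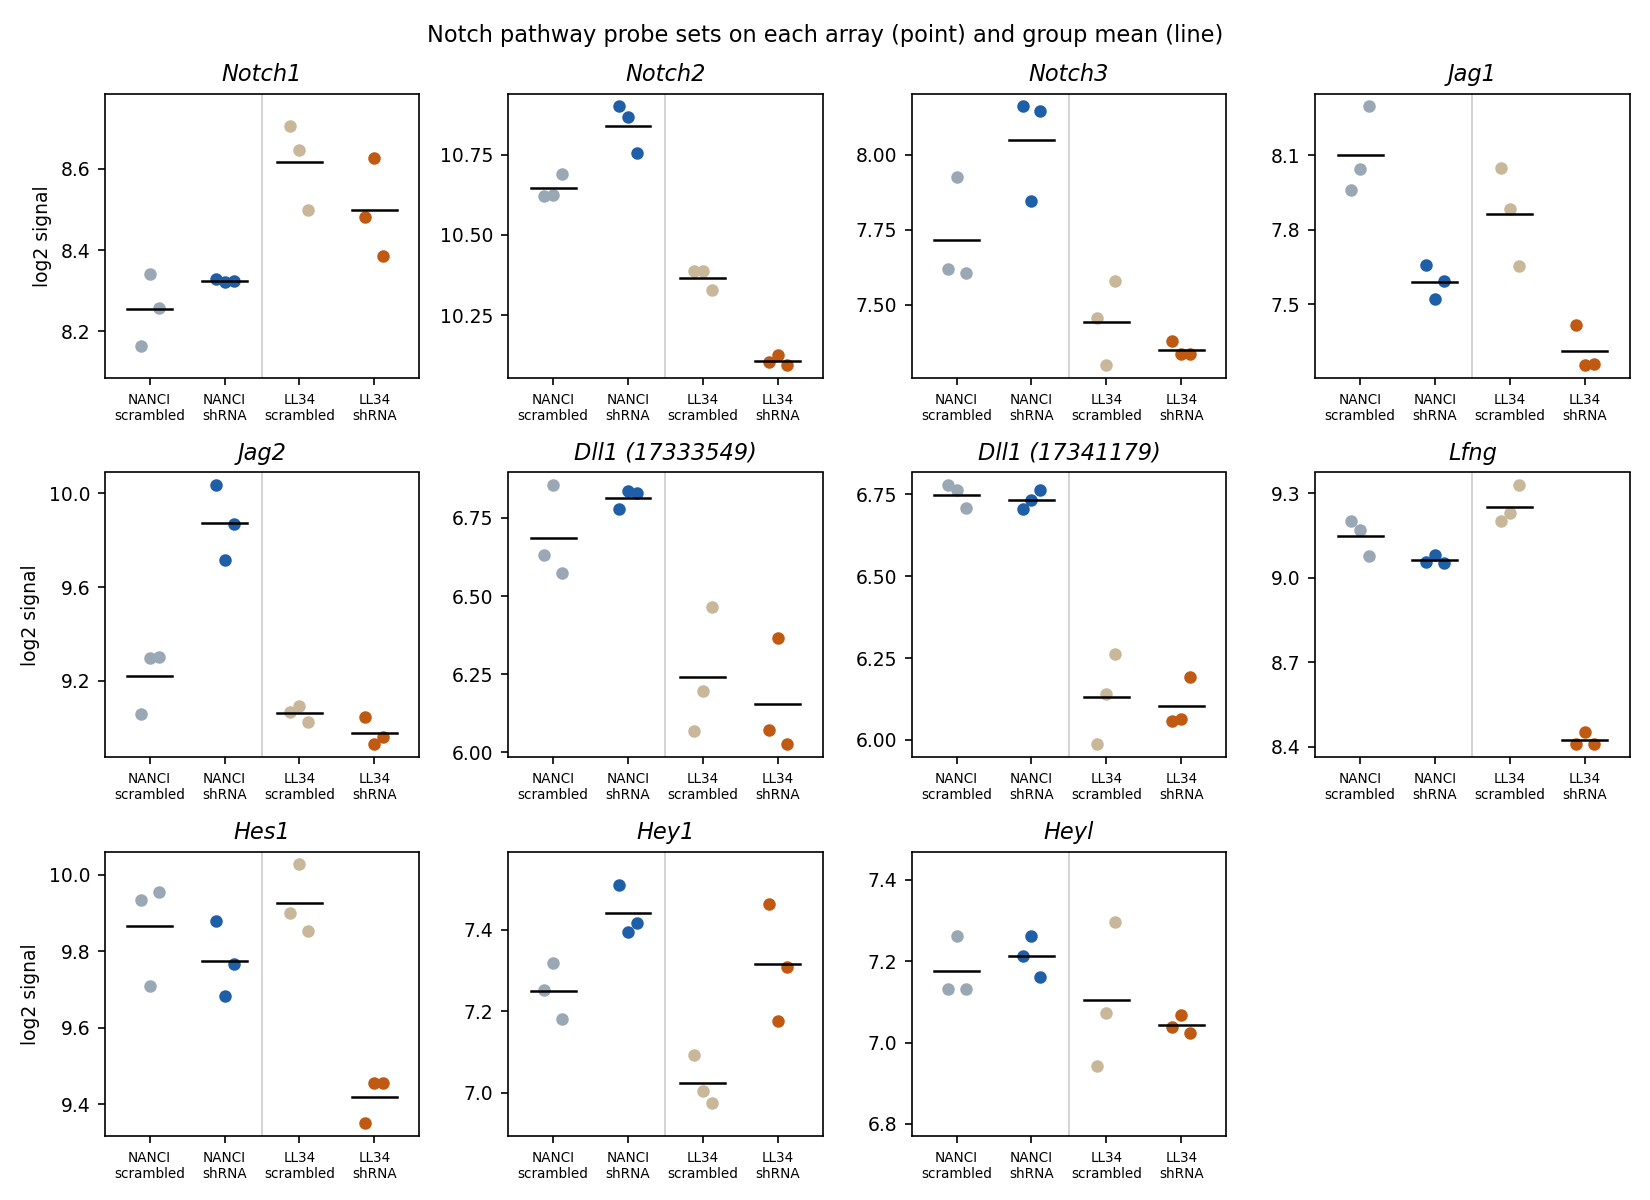
Log2 signal (vertical axis, a separate range in each panel) of the 11 Notch pathway probe sets on each array, with 3 points and a line at the mean for each of the 4 groups; a grey line parts the 2 sets. LL34 shRNA arrays lie below their scrambled arrays for Lfng, Hes1, Jag1 and Notch2, and NANCI shRNA arrays lie above theirs for Jag2.

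Of the receptors, Notch2 changed in both knockdowns and in opposite directions. Notch2 is a receptor gene expressed by lung epithelial progenitors (probe set 17400813). Its log2 signal was 10.62, 10.63 and 10.69 on the NANCI scrambled arrays and 10.90, 10.87 and 10.76 on the NANCI shRNA arrays. In the LL34 set it was 10.39, 10.39 and 10.33 on scrambled and 10.10, 10.13 and 10.09 on shRNA arrays. The groups did not overlap in either set, and Notch2 was the only one of the 11 probe sets called in opposite directions, as were 3.83% of all probe sets. NANCI shRNA arrays were the higher ones in their set and LL34 shRNA arrays the lower ones in theirs. Notch2 rose by 0.19 after NANCI shRNA (SE 0.0544, limma adjusted p = 0.0259) to 114% (95% interval 105% to 124%) of the scrambled level. It fell by 0.26 after LL34 shRNA (adjusted p = 0.00746) to 83.6% (77.0% to 90.8%). The 2 changes differed by 0.45 (SE 0.0769, limma adjusted p = 0.00156). The rise was lost without NANCI_shRNA replicate 1 (adjusted p = 0.0945) or 2 (0.0821) or NANCI_control replicate 1 (0.0839) or 2 (0.0724), with arrays centred on their medians (0.0524) and in a fit of the 6 arrays alone (0.0995). The first 2 LL34 scrambled arrays read exactly the same. With all 6 scrambled arrays as 1 control after joint quantile normalization the fall was 0.39.

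Notch1, the most studied receptor gene of the family, passed in neither knockdown (probe set 17383052). Its signal was 8.16, 8.34 and 8.26 on NANCI scrambled arrays and 8.33, 8.32 and 8.32 on NANCI shRNA arrays. On LL34 arrays it was 8.71, 8.65 and 8.50 against 8.48, 8.63 and 8.39. The groups overlapped in both sets. The changes were 0.07 (95% interval −0.10 to 0.24, limma adjusted p = 0.659) and −0.12 (−0.29 to 0.05, adjusted p = 0.391).

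Notch3, a receptor gene best known in vascular smooth muscle and also found in airway progenitors, missed the threshold after NANCI shRNA (probe set 17343299). The signal was 7.62, 7.93 and 7.61 on scrambled and 8.16, 7.85 and 8.14 on shRNA arrays. The second array of each group crossed over, so the groups overlapped. The change was 0.33 (95% interval 0.09 to 0.58, limma adjusted p = 0.0588). It passed without NANCI_shRNA replicate 2 (0.44, adjusted p = 0.0193), NANCI_control replicate 2 (0.44, 0.0164) or LL34_control replicate 3 (0.33, 0.0457). It also passed with array weights (0.0256), in a fit limited to the brighter probe sets, those not under the median level (0.0326), and against all 6 scrambled arrays as 1 control (0.0334). In the LL34 set the signals were 7.45, 7.30 and 7.58 against 7.38, 7.33 and 7.34, a change of −0.09 (−0.34 to 0.15, adjusted p = 0.678). The changes differed by 0.43 (adjusted p = 0.0899), and that difference passed without NANCI_shRNA replicate 2 (0.0324) or NANCI_control replicate 2 (0.0271).

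The Jagged ligands moved apart after NANCI shRNA, Jag2 upward and Jag1 downward. Jag2 encodes a ligand made by basal and other epithelial cells (probe set 17284253). Its signal was 9.06, 9.30 and 9.30 on scrambled and 10.03, 9.71 and 9.87 on NANCI shRNA arrays. All shRNA arrays lay above all scrambled arrays, as they did for 17.5% of all probe sets. Jag2 rose by 0.65 (SE 0.0896, limma adjusted p = 0.000306) to 157% (95% interval 137% to 180%) of the scrambled level. In the LL34 set the signals were 9.07, 9.09 and 9.03 on scrambled and 9.05, 8.93 and 8.96 on shRNA arrays, and the groups overlapped. The change there was −0.08 (−0.28 to 0.11, adjusted p = 0.635). The 2 changes differed by 0.74 (SE 0.127, limma adjusted p = 0.0017).

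Jag1, the ligand gene that is itself a Notch target in several tissues, fell by a similar amount in both knockdowns (probe set 17392151). Its signal went from 7.96, 8.04 and 8.30 to 7.66, 7.52 and 7.59 in the NANCI set. LL34 arrays went from 8.05, 7.89 and 7.66 to 7.42, 7.26 and 7.26. Each shRNA array lay below each scrambled array of its set, as for 15.5% and 12.3% of all probe sets in the NANCI and LL34 sets. Jag1 fell by 0.51 after NANCI shRNA (SE 0.11, limma adjusted p = 0.00604) to 70.2% (95% interval 59.4% to 83.0%). It fell by 0.55 after LL34 shRNA (SE 0.11, adjusted p = 0.00536) to 68.2% (57.7% to 80.7%). The 2 changes measured 0.04 apart, with a 95% interval of −0.30 to 0.38 (adjusted p = 0.912). That interval leaves room for a difference of up to 0.38. Jag1 was the only one of the 11 probe sets that was called in the same direction in both knockdowns, as were 3.59% of all probe sets.

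Dll1, a Delta ligand gene of neuroendocrine and other cells, gave dim signals on both of its probe sets, near the array medians. Probe set 17333549 read 6.57 to 6.85 on NANCI arrays and 6.03 to 6.46 on LL34 arrays. Probe set 17341179 read 6.71 to 6.78 and 5.99 to 6.26. The groups overlapped in each set on both probe sets. The changes were 0.13 and −0.02 after NANCI shRNA (adjusted p = 0.58 and 0.935) and −0.09 and −0.03 after LL34 shRNA (0.722 and 0.879). At signals this close to the array medians, a change in Dll1 RNA may not have been detectable.

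Lfng changed most among the 11 probe sets, after LL34 shRNA alone. It encodes Lunatic fringe, a Golgi glycosyltransferase that adds sugars to Notch receptors and so alters which ligands activate them (probe set 17444106). On the LL34 scrambled arrays the signal was 9.20, 9.23 and 9.33, and on the LL34 shRNA arrays 8.41, 8.45 and 8.41. The groups lay far apart, with replicate SDs of 0.0665 and 0.0237. Lfng fell by 0.83 (SE 0.0553, limma adjusted p = 5.22e-06) to 56.3% (95% interval 51.8% to 61.3%) of the scrambled level. In the NANCI set it was 9.20, 9.17 and 9.08 on scrambled and 9.06, 9.08 and 9.05 on shRNA arrays, which overlapped. The change there was −0.09 (−0.21 to 0.04, adjusted p = 0.377). The changes differed by 0.74 (SE 0.0782, limma adjusted p = 6.54e-05).

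**Figure D2:**
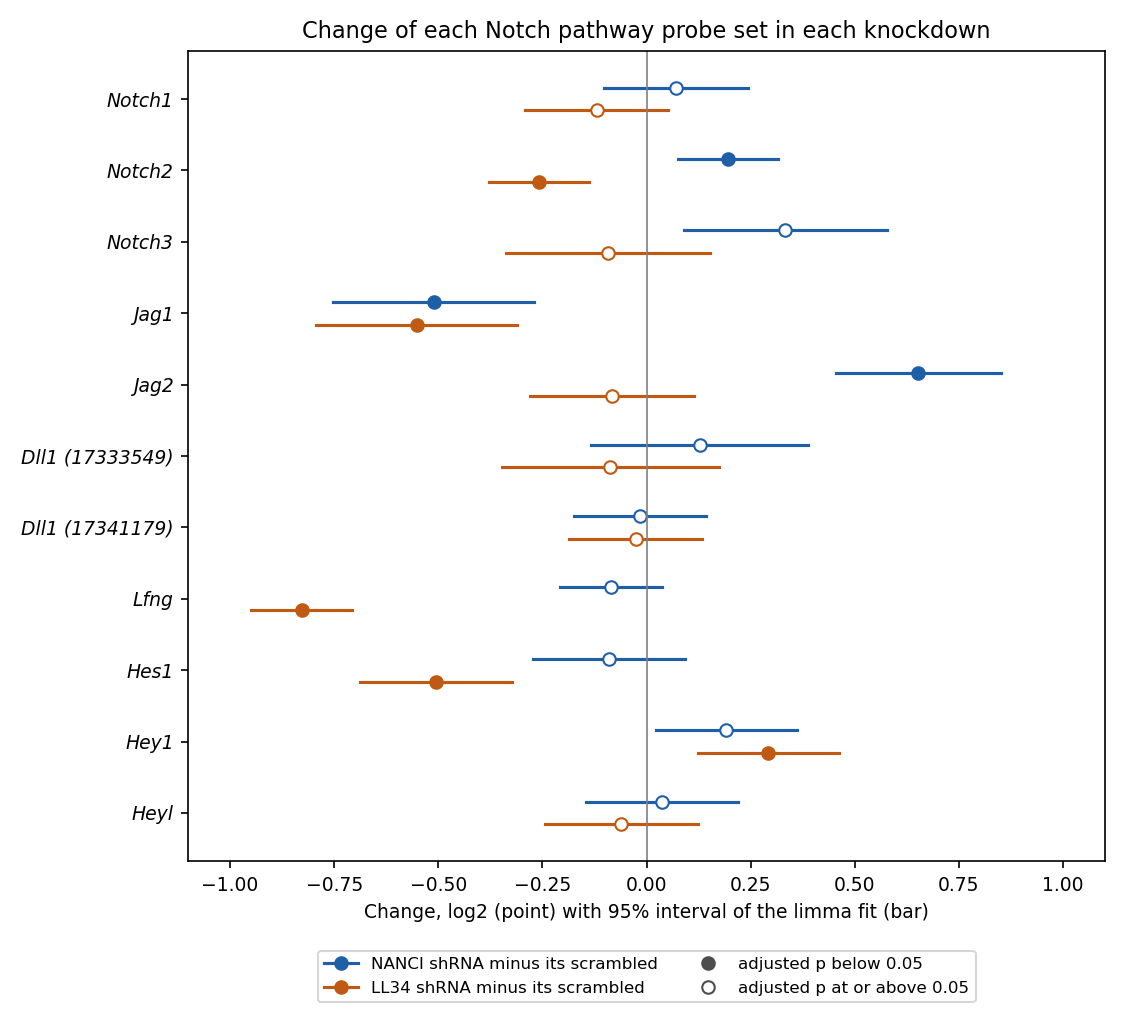
Change on the log2 scale (horizontal axis) of each Notch pathway probe set, shRNA minus scrambled, in the NANCI set (blue) and the LL34 set (orange), with 95% intervals of the limma fit as bars; filled points passed the adjusted threshold. The bars lie apart between the knockdowns for Notch2, Jag2, Lfng and, narrowly, Hes1, and nearly coincide for Jag1.

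The targets did not move as a group. Hes1, the classical repressor that Notch induces, fell after LL34 shRNA (probe set 17324623). Its signal was 9.90, 10.03 and 9.85 on LL34 scrambled and 9.35, 9.46 and 9.46 on LL34 shRNA arrays, with no overlap. It fell by 0.51 (SE 0.0826, limma adjusted p = 0.00162) to 70.4% (95% interval 62.1% to 79.9%). In the NANCI set the signals were 9.93, 9.71 and 9.96 against 9.88, 9.68 and 9.77, which overlapped, and the change was −0.09 (−0.27 to 0.09, adjusted p = 0.575). The changes differed by 0.42 (SE 0.117, limma adjusted p = 0.0286). That difference missed the threshold without NANCI_shRNA replicate 1 (adjusted p = 0.0693) or 3 (0.0518), NANCI_control replicate 2 (0.0519), LL34_shRNA replicate 1 (0.0746) or LL34_control replicate 2 (0.0711).

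Hey1, a repressor gene that Notch induces in vessels and epithelia, went the other way in the cells where Hes1 fell (probe set 17404011). Its signal was 7.09, 7.0 and 6.98 on LL34 scrambled and 7.46, 7.18 and 7.31 on LL34 shRNA arrays. Hey1 rose by 0.29 (SE 0.0769, limma adjusted p = 0.0239) to 122% (95% interval 109% to 138%). The call was lost without LL34_shRNA replicate 1 (adjusted p = 0.0975) or 3 (0.0674) or LL34_control replicate 2 (0.0721) or 3 (0.0659). It was also lost with quantile normalization (0.0773), with arrays centred on their medians (0.062), in the 6 arrays alone (0.0864) and against all 6 scrambled arrays as 1 control (0.0533). In the NANCI set the signals were 7.25, 7.32 and 7.18 against 7.51, 7.40 and 7.42. The shRNA arrays lay above the scrambled ones there too, but the change of 0.19 (0.02 to 0.36) missed the threshold (adjusted p = 0.121). The changes differed by −0.10 (−0.34 to 0.14, adjusted p = 0.63).

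Heyl, a related repressor gene best known in smooth muscle, passed in neither knockdown (probe set 17418177). Its signals were 7.13 to 7.26 on NANCI arrays and 6.94 to 7.30 on LL34 arrays, and shRNA and scrambled arrays overlapped in both. The changes were 0.04 (−0.15 to 0.22, adjusted p = 0.857) and −0.06 (−0.24 to 0.12, adjusted p = 0.725).

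The test of the difference between the knockdowns called 4 of the 11 probe sets, all higher, against 18.8% of all probe sets (8.63% higher and 10.2% lower) and 24.4% of named genes. Notch2, Jag2, Lfng and Hes1 all stood higher, relative to their scrambled arrays, after NANCI shRNA than after LL34 shRNA. The knockdowns did not share control arrays. For comparison, the deposited levels were also set side by side after quantile normalization of all 12 arrays together, with no test across sets. LL34 shRNA cells then had the lowest mean of the 4 groups for Lfng, Hes1, Jag1 and Notch2, all called lower after LL34 shRNA. The same order was seen for Jag2, Notch3 and both Dll1 probe sets, none of which was called there. How many of all probe sets shared this order was not counted, so it is a description only. For Lfng the LL34 shRNA mean was 8.41 ± 0.0335 (SD, n = 3), and the other groups measured 9.03 ± 0.0326, 9.11 ± 0.0857 and 9.31 ± 0.135. For Hes1 it was 9.43 ± 0.0658, and NANCI shRNA, NANCI scrambled and LL34 scrambled cells followed at 9.74 ± 0.0803, 9.84 ± 0.104 and 9.97 ± 0.0692, and of these 3 the neighbours lay closer together than the sum of their SDs. For Jag1 the LL34 shRNA mean of 7.37 lay close to the NANCI shRNA mean of 7.51. For Jag2 the NANCI shRNA mean of 9.83 ± 0.142 stood above the other 3, which ran from 8.98 to 9.19.

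Some of the genes also varied together across arrays. After the mean of each set was subtracted, Lfng and Hes1 correlated at 0.882 over the 12 arrays and Hes1 and Hey1 at −0.78. Notch3 and Jag2 correlated at 0.792, and Dll1 probe set 17333549 and Heyl, called in neither knockdown, at 0.818. The named pairs had the most extreme values among all pairs of the probe sets. The other Dll1 probe set, 17341179, correlated with Heyl at 0.676, and the Dll1 probe sets with each other at 0.397. All of these correlations include any step between scrambled and shRNA arrays and are given as a description. In the LL34 set, Dll1 probe set 17333549 and Heyl both read highest on LL34_control replicate 3 (6.46 and 7.30). How far that array sets their correlation was not tested. The genes whose set-centred pattern was most like that of Lfng, among the 12527 brighter named genes, were Dpysl2, a cytoskeletal phosphoprotein gene (r = 0.990), Slc6a8, the creatine transporter gene (0.987), and Rexo2, an oligoribonuclease gene (0.987). Their changes measured −0.77, −0.42 and −1.27 after LL34 shRNA and −0.12, −0.03 and −0.20 after NANCI shRNA. They were chosen for this pattern on the same arrays, so these values are a description with no test.

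**Figure D3:**
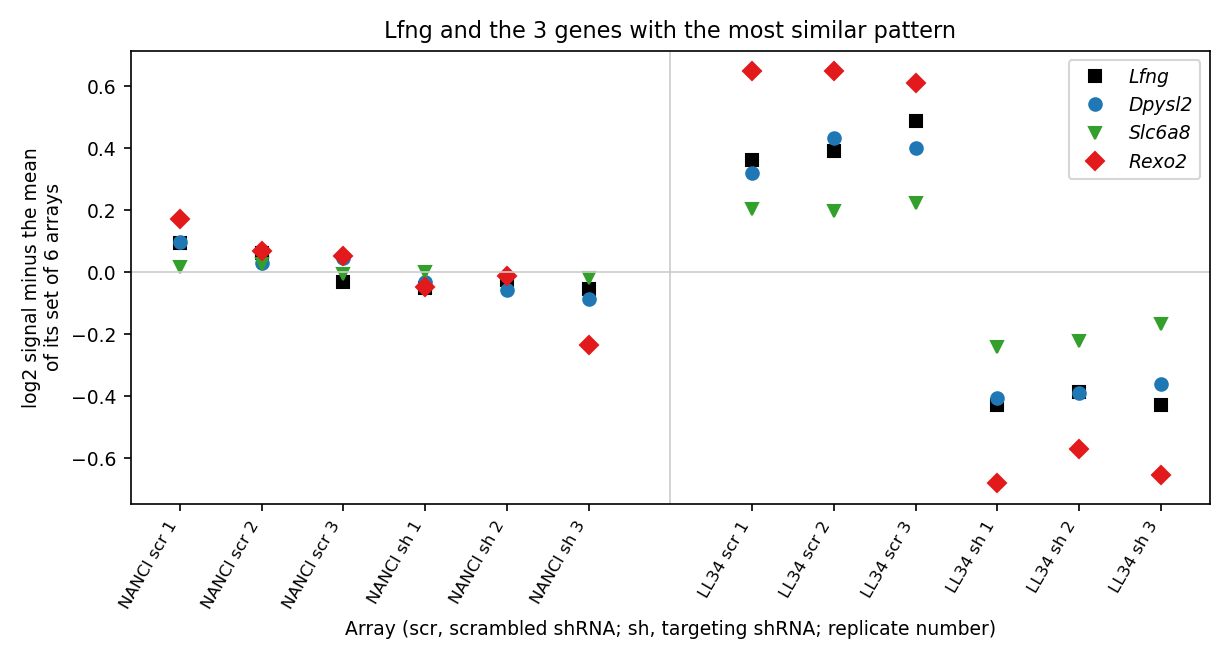
Log2 signal minus the mean of its set of 6 arrays (vertical axis) for Lfng and the 3 genes most like it, on each array (horizontal axis). All 4 genes step down from the LL34 scrambled to the LL34 shRNA arrays, with Rexo2 moving most and Slc6a8 least, and lie close to 0 in the NANCI set.

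The wider pathway held 56 other listed genes, of which 53 were measured through their brightest probe set. After NANCI shRNA, 9 rose and 11 fell, 37.7% called against 26.8% of named genes (13.2% higher and 13.6% lower), with a median change of 0.0035 against 0.0042 for all named genes. After LL34 shRNA, 9 rose and 6 fell, 28.3% against 20% (9.77% higher and 10.3% lower), with a median of −0.02 against −0.02. The difference between the knockdowns was called for 24 of 53, 7 higher and 17 lower, 45.3% against 24.4% (12% higher and 12.3% lower). The list was chosen with earlier results of these data known, and the named genes were not matched to it for signal level. These shares are therefore a description.

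Coregulators and a ligase gene led the falls after NANCI shRNA. Ep300, the p300 acetyltransferase gene that Notch complexes recruit, went from 11.20, 11.32 and 11.29 to 10.27, 10.25 and 10.30 and fell by 1.00 (limma adjusted p = 7.32e-07). Tle4, a Groucho corepressor gene that works with HES proteins, fell by 1.01 (adjusted p = 1.18e-06). Neurl1b, a ubiquitin ligase gene that acts on Notch ligands, fell by 1.02 (adjusted p = 1.43e-05). After LL34 shRNA these 3 genes measured −0.06, −0.08 and −0.06 and were not called. The differences between the knockdowns were called, at −0.94, −0.93 and −0.96 (adjusted p = 1.2e-05, 2.6e-05 and 0.000304). Adam10, Mib1 and Tle3, named after their values were seen, also fell after NANCI shRNA. They fell by 0.70, 0.77 and 0.76 (limma adjusted p = 3.45e-05, 4.33e-05 and 5.97e-05) and were not called after LL34 shRNA. Of the 53 genes, 9 rose and 11 fell after NANCI shRNA.

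Of 7 targets outside the 10 genes, 2 rose after NANCI shRNA, Hey2 and Nrarp, and none fell. Of all named genes 26.8% were called there, 13.2% higher and 13.6% lower. Counted either way, 2 of 7 lay near the background, while 2 of 7 called higher lay above the share of 13.2%. With 7 genes that difference cannot be told from the background. Hey2, a HEY repressor gene, went from 7.04, 7.02 and 7.19 to 7.99, 7.88 and 8.05 and rose by 0.89 (SE 0.073, limma adjusted p = 8.9e-06). Nrarp, a feedback inhibitor gene induced by Notch and named here after its values were seen, went from 7.97, 8.18 and 7.79 to 8.96, 8.73 and 8.90. It rose by 0.88 (SE 0.0937, adjusted p = 5.03e-05). The other 5, Hes2, Hes3, Hes5, Hes6 and Hes7, were not called. Mean levels of Hes3, Hes2 and Hes5 stood at percentiles 31.5, 52.8 and 54.8 of all probe sets, where a change may not have been detectable. After LL34 shRNA none of the 7 was called, with changes of −0.18 to 0.06, and Hey2 and Nrarp measured −0.03 and −0.18. The differences between the knockdowns were 0.92 for Hey2 and 1.07 for Nrarp (limma adjusted p = 1e-04 and 0.000199).

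After LL34 shRNA the smallest p-values were those of Dtx4, Ncstn, Maml1 and Furin. Dtx4, a Deltex ubiquitin ligase gene that acts on Notch receptors, went from 10.87, 10.80 and 10.69 to 9.82, 9.76 and 9.75, a fall of 1.01 (limma adjusted p = 2.2e-06). After NANCI shRNA it fell by 0.26 (adjusted p = 0.00706). Ncstn, nicastrin of the gamma-secretase that cuts receptors, turned between the knockdowns: it fell by 0.67 after LL34 shRNA (adjusted p = 1.86e-05) and rose by 0.54 after NANCI shRNA (3.58e-05), a difference of 1.21 (2.67e-06). Maml1, a Mastermind coactivator gene, rose by 0.80 after LL34 shRNA, and Furin, the protease gene whose product matures receptors, rose by 0.73 (adjusted p = 3.31e-05 and 7e-05). After NANCI shRNA they rose by 0.28 and 0.29 (0.0167 and 0.0159), calls that were lost without NANCI_shRNA replicate 1 (0.0685 and 0.0667) or NANCI_control replicate 1 (0.0721 and 0.0671), and for Furin in the 6 arrays alone (0.065).

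By role, receptor processing genes were called in 5 of 10 cases after NANCI shRNA, 3 higher and 2 lower, and in 4 of 10 after LL34 shRNA, 3 higher and 1 lower, where 26.8% and 20% of all named genes were called. Genes of the nuclear complex were called in 4 of 9 cases, 1 higher and 3 lower, and in 3 of 9, 2 higher and 1 lower. Modulators of receptors and ligands were called in 6 of 14 cases in each knockdown, 2 higher and 4 lower after NANCI shRNA and 3 and 3 after LL34 shRNA. Corepressors were called in 3 of 7 cases, 1 higher and 2 lower, and in 2 of 7, 1 each way. None of the 5 other ligand genes (Dll3, Dll4, Dlk1, Dlk2 and Dner) was called in either knockdown by limma, with changes of −0.23 to 0.07 and −0.26 to 0.08. The mean levels of Dner, Dll3, Dll4 and Dlk1 stood at percentiles 31, 38.4, 43.7 and 48.6 of all probe sets. At such dim signals a change may not have been detectable. Notch4, the remaining receptor gene, measured 0.08 and 0.11 and was not called.

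**Figure D4:**
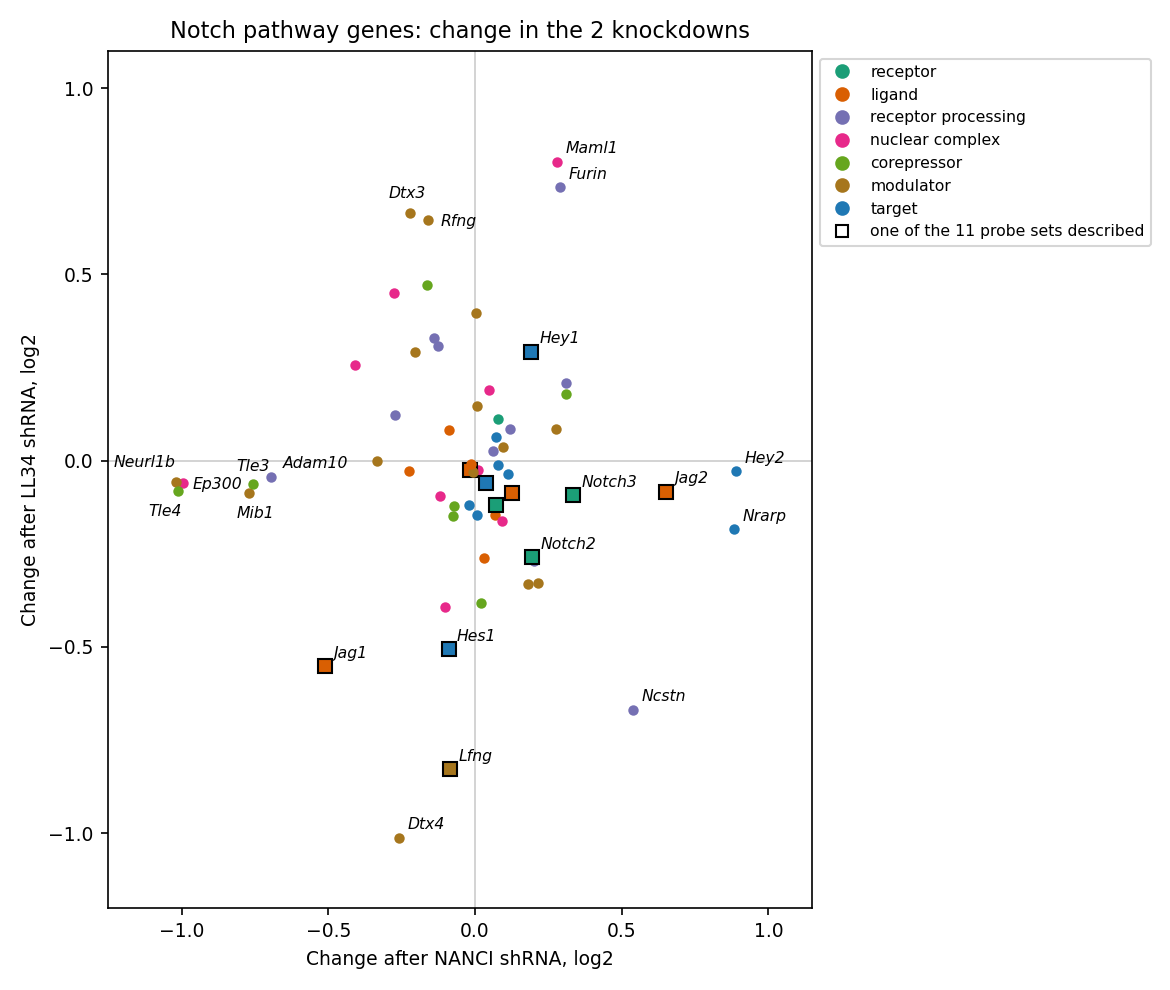
Change after NANCI shRNA (horizontal axis) against change after LL34 shRNA (vertical axis), both on the log2 scale, for the 53 measured genes of the wider pathway (circles) and the 11 Notch probe sets (outlined squares), coloured by role. Hey2, Nrarp and Jag2 lie to the right, Lfng and Dtx4 at the bottom, and Jag1 is below 0 on both axes.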

How the data were processed

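For 12 arrays the authors deposited 1 log2 signal for each probe set. Per the submitters' processing notes, oligo, RMA and limma were used; their versions and order were not given in the sources used here. Genes were named through the platform's annotation, which gave exactly 1 symbol for 23521 of 41345 probe sets, covering 22180 genes. A gene with several probe sets was counted in the wider pathway through its brightest. All 12 arrays were fitted together with limma 3.58.1 in R 4.3.3 (4 group means, 8 residual and 2.84 prior degrees of freedom), with Benjamini-Hochberg adjustment over all probe sets of a comparison. Data were read with the data.table package (1.17.8) and drawn with matplotlib 3.10.9 in Python 3.11.15. On simulated arrays of the NANCI comparison with 200 of 41345 probe sets changed by 1, the fit recovered 91% with 9 false calls. The simulated noise was independent between probe sets, fewer probe sets changed than were called in the data, and no change of the 11 probe sets reached 1. The simulation therefore checks the code and does not measure how the fit performs on the real arrays. Promoter windows came from RefSeq, GRCm38.p6. The members and lists were chosen with earlier results of these data known. Named genes were the 10 members, up to 4 called genes of the wider list with the smallest p in each knockdown, the check of the shRNA, and the 3 genes most like the member with the smallest p for the difference. Alternatives were quantile normalization, median centring, the 6 arrays alone, a replicate block, array weights, a trended robust fit, a filter on dim probe sets, all scrambled arrays as 1 control, every probe set of a gene, and leaving out each array. For the wider list, only the use of every probe set was planned, and the others were added once values had been seen. The number of arrays limits the precision.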

Additional observations from a re-analysis of the deposited data

Results flagged for a closer look

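The changes after NANCI and LL34 shRNA differed by limma's test of the difference for 4 of the 11 probe sets. The same test called 18.8% of all probe sets and 24.4% of named genes. NANCI change minus LL34 change was 0.45 for Notch2 (limma adjusted p = 0.00156), 0.74 for Jag2 (0.0017), 0.74 for Lfng (6.54e-05) and 0.42 for Hes1 (0.0286). For Notch2 all 3 NANCI shRNA arrays lay above and all 3 LL34 shRNA arrays below the scrambled arrays of their set. The Hes1 difference was lost without any 1 of 5 arrays, with adjusted p up to 0.0746, and the other differences were kept without each of the 12 arrays in turn.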

How the results depend on the processing

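Probe sets called higher after LL34 shRNA went from 4011 to 2610 without LL34_shRNA replicate 3, to 2640 without LL34_shRNA replicate 1 and to 2646 against all 6 scrambled arrays as 1 control. No other count by direction over all probe sets moved by more than 1.5 times, nor did any total of calls over all probe sets, the 11 probe sets or the wider list. The 11 probe sets gave 2 to 4 calls after NANCI shRNA, 4 to 5 after LL34 shRNA and, without 1 array each, 3 to 5 for the difference, against 4 under each other alternative. The wider list gave 16 to 22, 11 to 19 and 19 to 27. Jag1 and Jag2 after NANCI shRNA, Lfng, Hes1 and Jag1 after LL34 shRNA, and the differences of Notch2, Jag2 and Lfng kept their direction and call under every alternative run.

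Uncalled changes near 0 turned sign. Against all 6 scrambled arrays, NANCI changes were −0.17 for Notch1, 0.12 for Dll1 probe set 17341179 and −0.0622 for Heyl, and the LL34 change of Notch1 was 0.0244. With array weights that Dll1 probe set measured 0.0013 after LL34 shRNA and −0.0112 for the difference. Leaving out 1 array gave, after LL34 shRNA, −0.19 to 0.0236 and −0.10 to 0.0402 for Dll1 probe sets 17333549 and 17341179, −0.14 to 0.0354 for Heyl, −0.0819 to 0.0136 for Hey2 and −0.16 to 0.0249 for Neurl1b, and for the difference −0.052 to 0.14 for Jag1 and −0.0563 to 0.0814 for Dll1 probe set 17341179. The cause was not tested.

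Same-numbered shRNA and scrambled arrays showed no clear shared deviation (correlations of −0.125 to 0.0451, against −0.15 to 0.134 for differently numbered ones). With 3 arrays per group this cannot exclude a pairing, and the labels do not state one, so the main fit used none. With the replicate number as a block, calls fell from 8228 to 6906, from 6766 to 5257 and, for the difference, from 7780 to 6320 probe sets. The block took the adjusted p of Notch2 to 0.106 after NANCI and 0.0503 after LL34 shRNA, and that of Maml1 and Furin after NANCI shRNA to 0.0515 and 0.0723. The Furin difference went to 0.0576. Dim signal limits what Dll1 and the other dim ligand and target genes can show.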

Other observations

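RBPJ, the DNA-binding partner of Notch, was read by 2 probe sets of Rbpj that differed, and the gene was chosen after its values were seen. The brighter one (17466505) went from 11.20, 11.07 and 11.19 to 10.64, 10.71 and 10.88 after NANCI shRNA, a fall of 0.41 (limma adjusted p = 0.00758), and measured 0.26 after LL34 shRNA (adjusted p = 0.087). The other (17437490) measured −0.14 and 0.02 (adjusted p = 0.456 and 0.926). The difference between the knockdowns was −0.66 on the brighter probe set (adjusted p = 0.00366) and −0.17 on the other (0.547). The fall missed the threshold against all 6 scrambled arrays as 1 control after joint quantile normalization (−0.30, adjusted p = 0.0603), and the LL34 change passed in a fit limited to brighter probe sets (0.0491).

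Aph1a, a gamma-secretase subunit gene also picked after its values were seen, rose after NANCI shRNA on both of its probe sets, by 0.31 and 0.41 (limma adjusted p = 0.0015 and 0.000509). After LL34 shRNA the same probe sets measured 0.21 and −0.14 (adjusted p = 0.0216 and 0.155).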
